A study of Mus musculus with 9 samples.

Results

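The 9 genes described here encode the mouse MHC class I molecule: 8 heavy chains and their common light chain, beta-2-microglobulin. They were taken by symbol (H2-K1, H2-D1, H2-Q4, H2-Q6, H2-Q7, H2-T22, H2-T23, H2-M3 and B2m) and are 9 of the 22136 genes in the tables. All 9 had reads in each of the 9 libraries, and all 9 passed the filter on low counts. H2-K1 and H2-D1 are the classical chains, and the other 6 heavy chains are counted here as non-classical. RNA was bulk total RNA, depleted of ribosomal RNA, from skin tumors that grew after YUMMER1.7 cells were placed under the skin of C57BL/6J mice with intact immunity. YUMMER1.7 is a mouse melanoma line that was exposed to ultraviolet light to raise its number of mutations. Once tumors had formed, mice received an antibody to B7-H3 (3 libraries), an antibody to PD1 (3 libraries) or an IgG isotype control (3 libraries). B7-H3 and PD1 are proteins that can restrain immune responses. Ages and antibody doses are not in the labels. The labels call the libraries of a group replicates without tying each to a mouse, so p-values measure the spread between these samples, which may in part be technical.

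MHC class I molecules carry peptides from inside the cell to its surface, where CD8+ T cells read them. The classical chains present many different peptides, while several non-classical chains have narrower tasks. H2-T23 (Qa-1) presents a leader peptide to the CD94/NKG2A receptor of NK cells and T cells, H2-M3 presents peptides that start with formylmethionine, and H2-T22 is a ligand of some gamma-delta T cells. H2-Q6 and H2-Q7 belong to the Qa-2 group. Heavy chains need B2m to fold and to stay at the surface. Interferon gamma induces the genes through IRF1 and the activator NLRC5, and tumor cells that lower class I expression can escape T cells.

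The heavy-chain genes lie in the H2 complex on chromosome 17, and B2m lies on chromosome 2. In GENCODE M21 (GRCm38), H2-K1 spans chr17:33996017-34000347 and H2-D1 spans chr17:35262730-35267499. H2-Q4, H2-Q6 and H2-Q7 follow H2-D1 at chr17:35379617-35385290, chr17:35424850-35430055 and chr17:35439155-35443773. H2-T23 and H2-T22 lie at chr17:36029773-36032855 and chr17:36037128-36042747, H2-M3 lies at chr17:37270220-37274484, and B2m spans chr2:122147686-122153083.

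The promoters of 6 of the genes are shown because all hold an IRF pattern while only some hold an NF-kB pattern. Each sequence runs 5′ to 3′ on the gene's strand, from 250 bases before the RefSeq start (GRCm38.p6) to 50 bases after it. Capitals mark matches on either strand to the IRF core AANNGAAA and to the NF-kB pattern GGGNNTTNC, where N is any base. The windows are chr17:34000298-34000597 (minus strand) for H2-K1, chr17:35262844-35263143 (plus strand) for H2-D1 and chr17:35379367-35379666 (plus strand) for H2-Q4. Those of the other 3 are chr17:36032652-36032951 (minus strand) for H2-T23, chr17:37269984-37270283 (plus strand) for H2-M3 and chr2:122147437-122147736 (plus strand) for B2m.
H2-K1: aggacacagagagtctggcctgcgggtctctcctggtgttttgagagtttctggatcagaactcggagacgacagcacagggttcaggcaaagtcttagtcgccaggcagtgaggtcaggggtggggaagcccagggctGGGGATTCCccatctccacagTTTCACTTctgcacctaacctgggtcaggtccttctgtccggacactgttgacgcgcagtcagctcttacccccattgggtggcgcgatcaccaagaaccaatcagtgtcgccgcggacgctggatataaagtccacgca
H2-D1: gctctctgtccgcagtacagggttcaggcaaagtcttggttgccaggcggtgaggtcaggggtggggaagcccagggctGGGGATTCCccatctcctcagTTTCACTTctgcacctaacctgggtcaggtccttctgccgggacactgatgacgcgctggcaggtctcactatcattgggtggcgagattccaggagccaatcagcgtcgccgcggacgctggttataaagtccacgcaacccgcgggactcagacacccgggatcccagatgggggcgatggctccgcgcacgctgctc
H2-Q4: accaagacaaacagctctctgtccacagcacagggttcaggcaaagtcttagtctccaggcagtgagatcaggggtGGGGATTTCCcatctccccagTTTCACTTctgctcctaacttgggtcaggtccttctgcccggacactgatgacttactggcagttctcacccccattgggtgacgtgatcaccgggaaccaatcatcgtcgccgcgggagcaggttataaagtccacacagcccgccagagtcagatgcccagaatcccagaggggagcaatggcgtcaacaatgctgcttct
H2-T23: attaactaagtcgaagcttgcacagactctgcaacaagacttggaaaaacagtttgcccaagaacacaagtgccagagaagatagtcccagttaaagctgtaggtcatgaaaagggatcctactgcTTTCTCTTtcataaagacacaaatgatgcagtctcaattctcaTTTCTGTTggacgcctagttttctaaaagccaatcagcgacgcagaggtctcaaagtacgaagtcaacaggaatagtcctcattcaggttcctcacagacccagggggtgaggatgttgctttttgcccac
H2-M3: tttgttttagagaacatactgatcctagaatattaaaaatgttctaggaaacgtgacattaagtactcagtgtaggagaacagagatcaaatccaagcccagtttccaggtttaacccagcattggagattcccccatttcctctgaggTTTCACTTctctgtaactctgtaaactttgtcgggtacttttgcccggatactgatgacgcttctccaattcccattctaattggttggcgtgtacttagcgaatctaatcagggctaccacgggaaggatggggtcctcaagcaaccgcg
B2m: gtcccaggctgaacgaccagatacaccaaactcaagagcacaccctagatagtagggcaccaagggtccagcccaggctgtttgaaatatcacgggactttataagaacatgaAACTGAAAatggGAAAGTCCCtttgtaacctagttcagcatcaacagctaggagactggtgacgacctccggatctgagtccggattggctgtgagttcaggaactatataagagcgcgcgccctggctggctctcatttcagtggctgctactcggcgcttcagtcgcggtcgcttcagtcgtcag

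RefSeq promoters were found for 9 of 9 genes. All 9 windows held an IRF core, as did 24.2% of the 27025 mouse promoters of the same length. The NF-kB pattern was found in 6 of the 9 (H2-K1, H2-D1, H2-Q4, H2-Q6, H2-Q7 and B2m), against 15.1% of all promoters. H2-T22, H2-T23 and H2-M3 had no match to it in these windows. In the 5 heavy chains that held both, the IRF core began 20 or 21 bases after the start of the NF-kB pattern, counted in H2-Q4 from the nearer of 2 overlapping matches. In B2m the order was turned round, with the IRF core ahead of the NF-kB pattern by 12 bases. A match describes these letters and shows no binding.

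Library make-up differed between the groups before any gene was compared. Reads of 12 genes that hold major satellite repeat, the tandem DNA beside mouse centromeres, took 5.24 to 28.2% of estimated reads with anti-B7-H3, 14.6 to 38.2% with anti-PD1 and 87.0 to 92.1% with IgG. The reads outside them numbered 7232142 to 14404373 with anti-B7-H3, 5320053 to 9578170 with anti-PD1 and 1218961 to 3533127 with IgG. The 9 genes together held 0.244 to 0.492% with anti-B7-H3, 0.167 to 0.308% with anti-PD1 and 0.0788 to 0.351% with IgG of those reads. IgG replicate 3 was the thinnest library, with 449 reads over the 8 heavy chains, against 12722 to 47418 with anti-B7-H3 and 4773 to 20208 with anti-PD1. Of 8 melanocyte marker genes, only Mitf passed the filter on low counts, at 4.24 to 9.66 CPM per library. The other 7 (Sox10, Tyr, Tyrp1, Dct, Pmel, Mlana and Slc45a2) together had 7 to 36 reads per library. Fewer cells of a type and less RNA per cell cannot be told apart in bulk tumor RNA.

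Levels per length, in TMM-scaled CPM (reads per library size, as edgeR scales it) per kb of effective transcript length, put B2m first in every library. B2m averaged 1799 ± 560 over the 9 libraries (SD), H2-D1 349 ± 175 and H2-K1 249.9 ± 143. H2-D1 stood above H2-K1 in 9 of 9 libraries, by 1.17 to 1.71 times, and H2-K1 stood above H2-Q4 in 9 of 9, by 2.60 to 5.43 times. H2-Q4, at 70.7 ± 44.0, was on average the most abundant of the non-classical chains and exceeded H2-T22 in 7 of 9 libraries. H2-T22 (46.8 ± 24.4) and H2-T23 (46.6 ± 24.5) did not differ beyond their spread, and H2-T22 was the higher in 6 of 9 libraries. H2-Q7 (20.3 ± 13.0) was below H2-T23 in 9 of 9 libraries, while H2-Q6 (9.97 ± 5.91) and H2-M3 (9.58 ± 2.95) again did not differ beyond their spread.

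**Figure D1:**
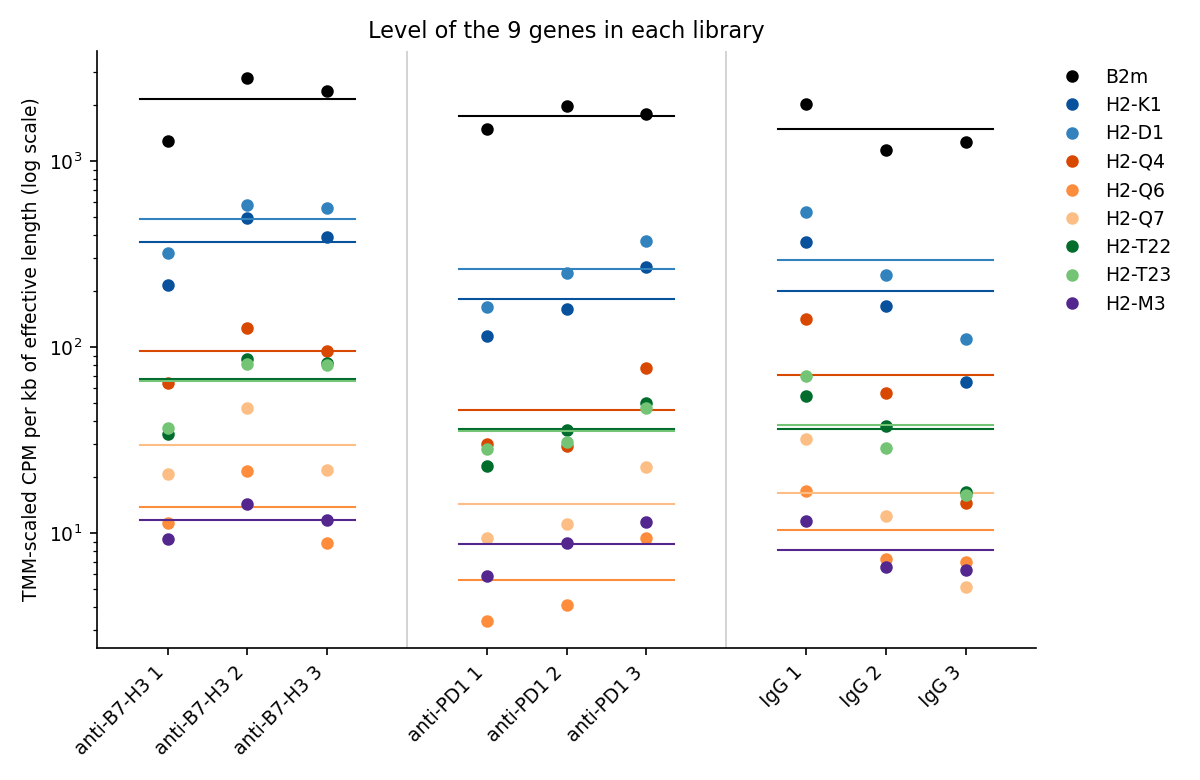
TMM-scaled CPM per kb of effective length (log axis) of the 9 genes in each library, with anti-B7-H3 on the left, then anti-PD1, then IgG; points are libraries and bars are group means of 3. B2m is the highest in every library and H2-Q6 and H2-M3 are near the bottom, while the common height of the genes differs between libraries of 1 group.

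The classical chains came first in the comparison of treatments, since they carry most of the heavy-chain message. H2-K1 had 201, 461 and 362 CPM in the anti-B7-H3 libraries, 107, 148 and 254 in the anti-PD1 libraries, and 323, 149.8 and 51.5 in the IgG libraries. H2-D1 had 297, 541 and 521 CPM in the anti-B7-H3 libraries, 153, 231 and 349 in the anti-PD1 libraries, and 478, 220.3 and 98.9 in the IgG libraries. For both genes anti-B7-H3 replicate 2 was the highest library and IgG replicate 3 the lowest, IgG replicate 1 lay among the anti-B7-H3 libraries, and all 3 groups overlapped. The log2 fold change of H2-K1 over IgG was 0.96 ± 0.59 (SE) in anti-B7-H3 libraries (adjusted p = 0.626, edgeR) and -0.05 ± 0.59 in anti-PD1 libraries (adjusted p = 0.980). Between the antibodies, anti-B7-H3 over anti-PD1, it was 1.01 ± 0.59 (adjusted p = 0.769, edgeR). H2-D1, in the same order, had 0.77 ± 0.51, -0.12 ± 0.51 and 0.89 ± 0.51, with edgeR adjusted p = 0.657, 0.929 and 0.769. Neither classical chain passed the threshold of 0.05 in any comparison. In anti-B7-H3 libraries over IgG, H2-K1 was 0.54 when IgG replicate 3 was left out and 1.75 when IgG replicate 1 was, and H2-D1 was 0.38 and 1.504.

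B2m, the chain that all heavy chains share, spread less. It had 253, 540.3 and 462 CPM in the anti-B7-H3 libraries, 299.6, 384 and 366 in the anti-PD1 libraries, and 393, 226 and 235 in the IgG libraries. The highest library was 2.39 times the lowest, against 8.94 times for H2-K1 and 2.45 times for H2-M3, and the groups overlapped. With IgG replicate 3 left out, the spread was 4.32 times for H2-K1 and still 2.39 times for B2m. Its log2 fold change over IgG was 0.56 ± 0.31 in anti-B7-H3 libraries and 0.30 ± 0.31 in anti-PD1 libraries, and between the antibodies it was 0.26 ± 0.31 (edgeR adjusted p = 0.573, 0.644 and 0.869).

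Among the chains of the Q region, H2-Q4 had 57.5, 113 and 85.3 CPM in the anti-B7-H3 libraries, 27.0, 26.3 and 70.4 in the anti-PD1 libraries, and 122, 49.4 and 12.4 in the IgG libraries. H2-Q4 was the only member whose highest library was an IgG library, and its lowest was one too, 9.81-fold apart. Its log2 fold change in anti-B7-H3 libraries over IgG, 0.46 ± 0.70, was 0.0068 without IgG replicate 3 and 1.41 without IgG replicate 1. H2-Q6 had 9.21, 17.4 and 7.15 CPM in the anti-B7-H3 libraries, 2.77, 3.32 and 7.73 in the anti-PD1 libraries, and 13.2, 5.70 and 5.52 in the IgG libraries. Anti-PD1 replicates 1 and 2 were the lowest libraries for H2-Q6, and anti-PD1 replicate 3 lay above the lowest anti-B7-H3 library. H2-Q7, its partner in the Qa-2 group, had 13.4, 27.9 and 13.6 CPM in the anti-B7-H3 libraries, 5.32, 6.64 and 14.1 in the anti-PD1 libraries, and 19.3, 7.71 and 4.14 in the IgG libraries. The groups of H2-Q7 overlapped as well. H2-Q6 gave the smallest p of the 9 genes, with a log2 fold change between the antibodies of 1.27 ± 0.48 (edgeR, unadjusted p = 0.0232), and it did not pass after adjustment (edgeR adjusted p = 0.749).

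Reads of these paralogs are hard to assign. The coding sequences of H2-Q6 and H2-Q7 were 93.5% identical, and those of H2-K1 and H2-D1 were 91.5% identical. Of the 31-base words in the most used coding sequence, 53.0% in H2-Q6, 54.7% in H2-Q7 and 61.9% in H2-T22 occurred in other genes too. The share was 40.5% in H2-D1, 38.2% in H2-Q4, 30.8% in H2-K1, 27.9% in H2-T23, 6.63% in H2-M3 and 0 in B2m. How reads were split between such genes was set by the quantification that the authors ran, and the split is uncertain. H2-Q6, H2-Q7 and the 4 other H2-Q genes H2-Q1, H2-Q2, H2-Q5 and H2-Q10 summed to 25.4, 50.9 and 23.5 CPM in the anti-B7-H3 libraries, 9.18, 11.8 and 24.6 in the anti-PD1 libraries, and 38.9, 15.3 and 17.0 in the IgG libraries. The sum again overlapped between groups, with a log2 fold change between the antibodies of 1.12 ± 0.47 (edgeR adjusted p = 0.749). H2-T22 summed with H2-T10, its nearest relative by shared words, had 0.83 ± 0.43 there, against 0.83 ± 0.42 for H2-T22 alone.

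In the T and M regions, H2-T22 had 32.4, 72.8 and 59.4 CPM in the anti-B7-H3 libraries, 22.4, 25.5 and 44.4 in the anti-PD1 libraries, and 50.0, 27.6 and 15.2 in the IgG libraries. H2-T23 had 33.3, 73.0 and 72.8 CPM in the anti-B7-H3 libraries, 25.6, 27.9 and 42.9 in the anti-PD1 libraries, and 61.3, 25.1 and 13.8 in the IgG libraries. Both were highest in anti-B7-H3 replicate 2 and lowest in IgG replicate 3, with overlap between all groups. H2-M3 had 7.78, 12.1 and 9.87 CPM in the anti-B7-H3 libraries, 4.95, 7.42 and 9.81 in the anti-PD1 libraries, and 9.34, 5.36 and 5.06 in the IgG libraries. H2-M3 varied least among the heavy chains, 2.45-fold between the extreme libraries.

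Across the group, 0 of 9 genes passed an adjusted p of 0.05 in any comparison with edgeR. The background was 0.555% of 12965 genes called with anti-B7-H3 over IgG, 0.393% with anti-PD1 over IgG, 0% between the antibodies and 1.14% in the test over all 3 groups. DESeq2 and limma-voom also gave 0 of 9 in each. At an unadjusted p under 0.05, 0 of 9 passed with anti-B7-H3 over IgG (10.5% of all genes did), 0 of 9 with anti-PD1 over IgG (18.5%) and 1 of 9, H2-Q6, between the antibodies (6.48%). In each comparison 0 of 9 genes had groups that did not overlap, against 16.3%, 23% and 15.4% of all genes in the same order.

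The signs of the fitted values, none of which passed the test, were also counted. With anti-B7-H3 over IgG, 9 of 9 log2 fold changes were above 0, between 0.44 and 0.96 with a median of 0.76, and the median of all genes tested was 0.03. With anti-PD1 over IgG, 2 of 9 were above 0 (H2-M3 and B2m), between -0.83 and 0.30 with a median of -0.08, beside 0.01 for all genes. Between the antibodies, 9 of 9 were above 0, between 0.26 and 1.27 with a median of 0.89, beside 0.01 for all genes. The comparisons share libraries in pairs and the members follow each other across libraries, so 9 genes are not 9 separate observations. With limma-voom, 5 of 9 members were above the all-gene median for anti-PD1 over IgG. A further fit took as a covariate the summed level of vomeronasal and olfactory receptors, genes normally silent outside sensory tissue that were higher in every IgG library than in every other library. It gave H2-K1 -1.18 ± 1.36 for anti-B7-H3 over IgG (edgeR adjusted p = 1), with 9 of 9 members below 0 and standard errors of 0.69 to 1.84. Treatment and receptor level cannot be told apart in that fit. Single libraries moved the medians. Over IgG with anti-B7-H3, the median was 0.41 when anti-B7-H3 replicate 2 was left out, 0.47 when IgG replicate 3 was and 1.41 when IgG replicate 1 was. Over IgG with anti-PD1, it was 0.51 when IgG replicate 1 was left out, 0.11 and 0.02 when anti-PD1 replicate 1 or 2 was, and -0.45, -0.23 and -0.47 when anti-PD1 replicate 3, IgG replicate 2 or IgG replicate 3 was.

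**Figure D2:**
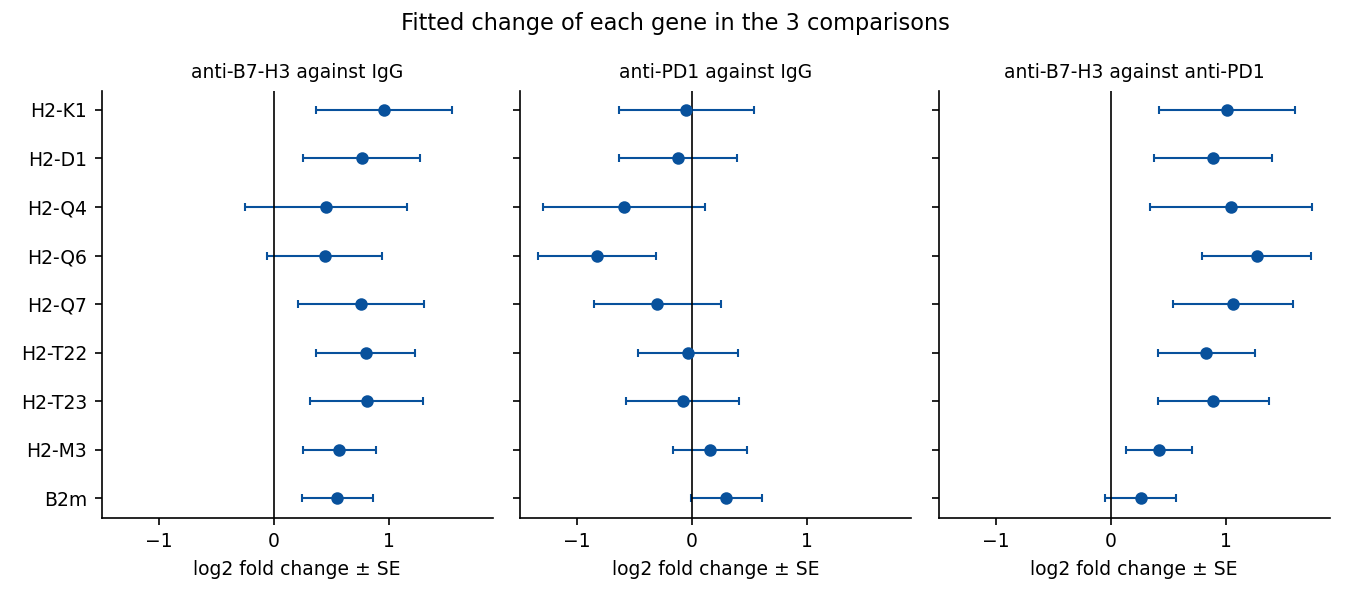
Log2 fold change of each gene, with its standard error, for anti-B7-H3 over IgG (left), anti-PD1 over IgG (middle) and anti-B7-H3 over anti-PD1 (right). All 9 points lie right of 0 in the left and right panels and 2 of 9 do in the middle in this edgeR fit, and no gene passed an adjusted p of 0.05.

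Anti-B7-H3 replicate 2 was the highest library for 8 of the 9 genes, and anti-B7-H3 replicate 3 was the next for 6. IgG replicate 1 was among the 3 highest libraries for 8 genes. IgG replicate 3 was among the 2 lowest for 8 genes and anti-PD1 replicate 1 for 6. The IgG group therefore held a library near the top and the library most often at the bottom.

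Within a library, the balance of classical and non-classical chains needs no scaling between libraries. Per length, H2-K1 and H2-D1 made up 75.2, 74.1 and 76.0 percent of the heavy chains in the anti-B7-H3 libraries, 73.7, 77.3 and 74.7 in the anti-PD1 libraries, and 73.4, 73.3 and 72.8 in the IgG libraries. The 3 IgG libraries were below the other 6 by this measure, at most 73.4% in IgG and at least 73.7% in the others. Counted as a share of heavy-chain reads, the classical chains took 76.0 to 78.1% with anti-B7-H3, 74.7 to 79.6% with anti-PD1 and 72.8 to 75.4% with IgG, so that anti-PD1 and IgG overlapped. In IgG replicate 3 that share had a 95% Wilson interval of 68.5 to 76.7%, which covers counting error only. The difference in mean log2 CPM, classical minus non-classical, was 3.78 ± 0.22 with anti-B7-H3, 3.76 ± 0.16 with anti-PD1 and 3.49 ± 0.32 with IgG (SD, n = 3), and all groups overlapped. It was 3.12 in IgG replicate 3 and between 3.63 and 4.03 in the other 8 libraries. Without IgG replicate 3 the difference from IgG was 0.11 for anti-B7-H3 and 0.09 for anti-PD1, against 0.29 and 0.27 with it. In IgG replicate 3, reads expected at the rate of the receptor genes were 12.9 to 41.7% of the reads of each non-classical chain. For H2-K1 and H2-D1 they were 3.70 and 1.99%, so taking them away would raise the classical share there. These shares and differences were not recomputed without such reads, and no test was made of them.

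**Figure D3:**
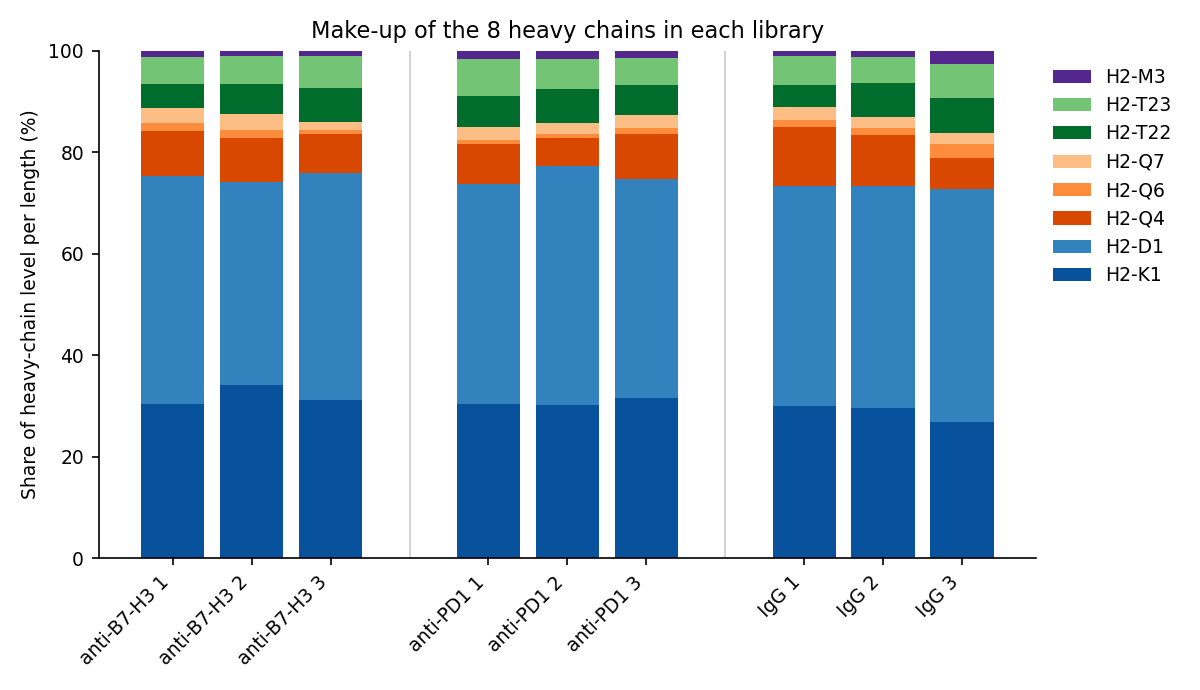
Share of each heavy chain in the summed heavy-chain level per length (%, stacked to 100) in each library, with anti-B7-H3 on the left, then anti-PD1, then IgG. H2-K1 and H2-D1 together take 72.8 to 77.3% in every library.

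The smaller chains divided the remainder unevenly. Of the heavy chains per length, H2-Q4 took 7.61 to 9.03% with anti-B7-H3, 5.56 to 9.03% with anti-PD1 and 6.02 to 11.5% with IgG. H2-T22 and H2-T23 together took 9.94 to 13.0% with anti-B7-H3, 11.2 to 13.5% with anti-PD1 and 10.2 to 13.6% with IgG. Both ranges overlapped between all groups. Low counts limited the rarest chains in IgG replicate 3, which had 12 reads of H2-Q6, 9 of H2-Q7 and 11 of H2-M3. The receptor genes had 3.74 reads per coding kb in that library. At that rate 30.6% of its H2-Q6 reads, 41.7% of its H2-Q7 reads and 34.3% of its H2-M3 reads would be background, against 3.70% for H2-K1 and 0.263% for B2m. In the 3 anti-B7-H3 libraries the same estimate was at most 0.589% for any member.

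The light chain did not keep pace with the heavy chains in every library. Per length, B2m was 1.80, 1.93 and 1.91 times the summed heavy chains in the anti-B7-H3 libraries, 3.92, 3.73 and 2.07 in the anti-PD1 libraries, and 1.66, 2.05 and 5.28 in the IgG libraries. The 3 anti-B7-H3 libraries lay close together, below all 3 anti-PD1 libraries and among the IgG libraries. The ratio was highest in IgG replicate 3 and anti-PD1 replicates 1 and 2, the 3 libraries with the lowest summed heavy chains (241, 381 and 529.9 CPM per kb). That sum is the denominator of the ratio, so this is not a separate observation. This ratio was not tested either, since it is a score over the members.

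**Figure D4:**
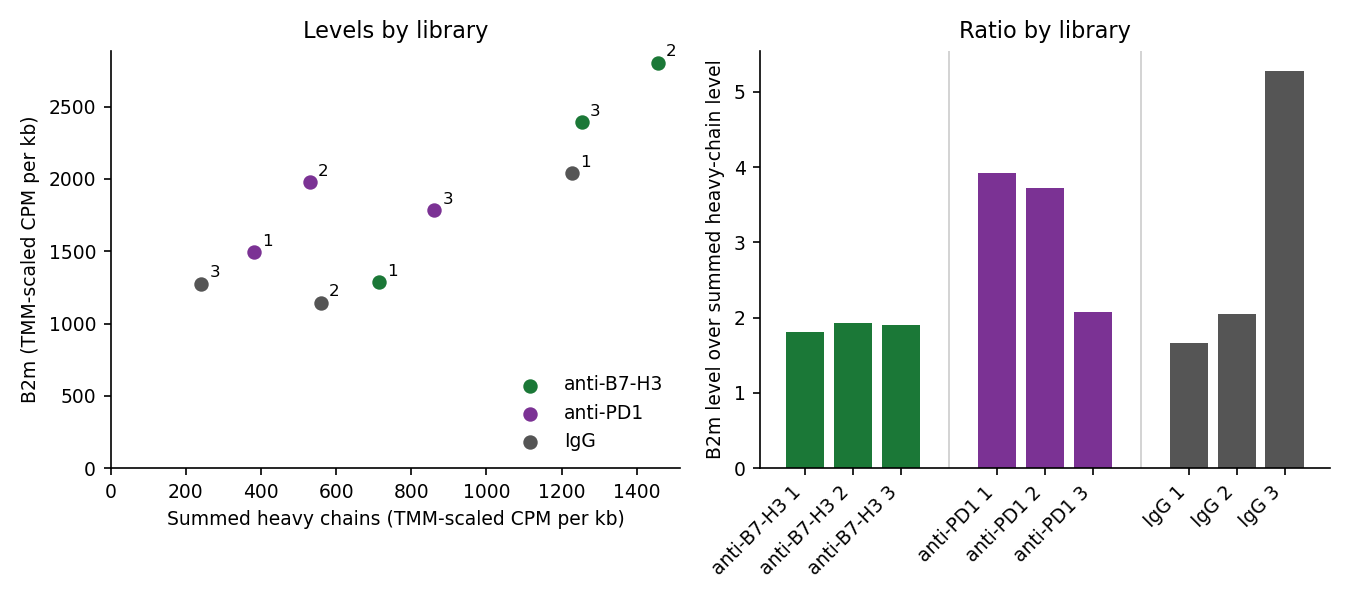
Left, B2m against the summed heavy chains in TMM-scaled CPM per kb, with the replicate number beside each point and 1 color for each group. Right, the ratio of B2m to the heavy chains in each library, which lies between 1.80 and 1.93 with anti-B7-H3 and reaches 5.28 in IgG replicate 3.

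Several members are counted over more than 1 coding transcript. In H2-K1, 93.1% of reads fell on 1 of 8 listed transcripts, between 63.1% in IgG replicate 3 and 96.8% in IgG replicate 2. In H2-D1, 79.8% fell on 1 of 2 transcripts, between 78.8 and 82.7% by library. H2-Q7 was split, with 46.9% of its reads on a transcript of 648 coding bases and 34.9% on another of 1005 coding bases. In H2-T22, 86.1% of reads fell on 1 of 3 transcripts.

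Genes that load peptides onto class I were examined as a list of 8. All 8 passed the filter, and 0 of 8 were called in any comparison, against the backgrounds given above. Over IgG with anti-B7-H3, 8 of 8 log2 fold changes were above 0 (median 0.49), over IgG with anti-PD1 4 of 8 were (median 0.09), and between the antibodies 5 of 8 were (median 0.41). Leaving out each library in turn gave medians of 0.35 to 0.97, 0.067 to 0.49 and 0.065 to 0.67 in the same order. Over IgG the upper ends came without IgG replicate 1, and the lower ends without IgG replicate 2 (anti-B7-H3) and anti-PD1 replicate 3 (anti-PD1). Tap1, a subunit of the pump that moves peptides into the endoplasmic reticulum, had 45.9, 105 and 101 CPM in the anti-B7-H3 libraries, 25.8, 35.1 and 58.6 in the anti-PD1 libraries, and 84.5, 37.5 and 14.7 in the IgG libraries. Its groups overlapped and its highest and lowest libraries were those of H2-K1, with a log2 fold change between the antibodies of 1.08 ± 0.56 (edgeR adjusted p = 0.764). Erap1, which trims peptides in the endoplasmic reticulum, had 0.79 ± 0.29 over IgG with anti-B7-H3 (edgeR adjusted p = 0.323).

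The 5 immunoproteasome genes, whose products take part in making class I peptides, also gave 0 of 5 calls in each comparison. Their medians were 0.85 with anti-B7-H3 over IgG, 0.16 with anti-PD1 over IgG and 0.57 between the antibodies. They ran over 0.44 to 1.30, -0.12 to 0.89 and 0.33 to 0.82 as each library was left out, and over IgG the lower ends came without IgG replicate 3 and the upper ends without IgG replicate 1. Psmb9, an interferon-induced catalytic subunit, had 11.4, 26.1 and 24.6 CPM in the anti-B7-H3 libraries, 7.50, 13.6 and 16.4 in the anti-PD1 libraries, and 20.2, 7.82 and 4.14 in the IgG libraries. Its groups overlapped. The 3 constitutive subunits that the immunoproteasome replaces (Psmb5, Psmb6 and Psmb7) had medians of 0.37, 0.53 and -0.16 in the same order, with 0 of 3 called. Their ranges over left-out libraries were 0.21 to 0.52, 0.19 to 0.66 and -0.31 to 0.20.

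Of the 9 regulators of class I genes, 0 were called in any comparison, with medians of 0.00 with anti-B7-H3 over IgG, -0.19 with anti-PD1 over IgG and 0.23 between the antibodies. With single libraries left out these medians ran over -0.056 to 0.26, -0.35 to 0.029 and 0.093 to 0.42. Nlrc5, the main activator of class I promoters, had 50.2, 109 and 68.1 CPM in the anti-B7-H3 libraries, 24.2, 17.9 and 60.0 in the anti-PD1 libraries, and 63.3, 33.9 and 17.0 in the IgG libraries. Its log2 fold change between the antibodies was 1.15 ± 0.55 (edgeR adjusted p = 0.754), and the groups overlapped. Over IgG with anti-B7-H3, the interferon-responsive transcription factor Irf1 had 0.78 ± 0.36 (edgeR adjusted p = 0.495).

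Of 7 genes of interferon gamma signalling, 0 were called in any comparison, with medians of 0.26, 0.17 and 0.02 in the same order, over ranges of 0.10 to 0.45, 0.075 to 0.34 and -0.021 to 0.23 as libraries were left out. Ifng itself, the cytokine, had under 1 CPM in every library and 0 reads in IgG replicates 2 and 3. Socs1, a feedback inhibitor of this pathway, had 3.48, 6.39 and 8.02 CPM in the anti-B7-H3 libraries, 1.60, 3.06 and 2.83 in the anti-PD1 libraries, and 9.34, 4.92 and 5.52 in the IgG libraries. All 3 anti-PD1 libraries were below all 3 IgG libraries and below all 3 anti-B7-H3 libraries. The log2 fold change of Socs1 was -1.38 ± 0.39 with anti-PD1 over IgG (edgeR adjusted p = 0.115) and 1.24 ± 0.36 between the antibodies (adjusted p = 0.749), so neither passed.

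Other class I genes were mostly too low to test. Of 19 further H2 class I genes in the tables, 4 passed the filter (H2-Q5, H2-T10, H2-T24 and H2-M2), and 0 of 4 were called in any comparison. H2-Q5 had a log2 fold change between the antibodies of 1.02 ± 0.45 (edgeR adjusted p = 0.749). Of 7 class I-like chains, 5 were tested and 0 called. Fcgrt, the neonatal Fc receptor that also pairs with B2m, had 32.1, 24.3 and 29.5 CPM in the anti-B7-H3 libraries, 24.6, 45.2 and 25.0 in the anti-PD1 libraries, and 24.7, 31.6 and 13.8 in the IgG libraries. Its highest library was anti-PD1 replicate 2, which was the highest for no heavy chain. Of 15 receptors that bind class I chains, 9 were tested and 0 called. Pirb, an inhibitory receptor of myeloid cells, had a log2 fold change over IgG with anti-B7-H3 of 1.00 ± 0.40 (edgeR adjusted p = 0.385).

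Markers of immune cells differed between the same libraries, and their part in the class I values was not tested. The 4 general leukocyte markers summed to 95.5, 138 and 193 CPM in the anti-B7-H3 libraries, 71.3, 158 and 88.5 in the anti-PD1 libraries, and 78.8, 62.5 and 34.5 in the IgG libraries. All 4 had positive log2 fold changes over IgG with either antibody, with medians of 1.32 for anti-B7-H3 and 0.86 for anti-PD1 and 0 called. As libraries were left out the medians ran over 1.02 to 1.58 and 0.44 to 1.12. The 8 macrophage markers summed to 674, 589 and 1099 CPM in the anti-B7-H3 libraries, 494, 1226 and 450.1 in the anti-PD1 libraries, and 567, 499.6 and 203 in the IgG libraries, with 0 called. The highest library for macrophage markers, anti-PD1 replicate 2, had the third lowest sum of heavy chains per length. The 9 T cell markers summed to 13.3, 21.6 and 21.4 CPM in the anti-B7-H3 libraries, 9.11, 13.8 and 15.3 in the anti-PD1 libraries, and 21.4, 7.60 and 11.96 in the IgG libraries, with 0 called. IgG replicate 1 was high for T cell markers as for the heavy chains. IgG replicate 3, the library with the lowest summed heavy chains, was above IgG replicate 2 and anti-PD1 replicate 1 for T cell markers. That value rests on 26 reads over the 9 T cell markers, in a library with 3.74 receptor reads per coding kb. How many of the 26 reads are background was not estimated. The 7 MHC class II genes, which present to CD4+ T cells and are normally limited to antigen-presenting cells, summed to 631, 786 and 1173 CPM in the anti-B7-H3 libraries, 327, 740.3 and 566 in the anti-PD1 libraries, and 656, 291 and 108 in the IgG libraries. Their median log2 fold change over IgG was 1.32 in anti-B7-H3 libraries and 0.48 in anti-PD1 libraries, and between the antibodies it was 0.65, with 0 of 7 called. The ranges over left-out libraries were 0.99 to 1.99, 0.28 to 1.34 and 0.38 to 1.00.

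The 5 dendritic cell markers summed to 19.4, 47.1 and 44.7 CPM in the anti-B7-H3 libraries, 11.7, 17.9 and 17.2 in the anti-PD1 libraries, and 26.5, 17.2 and 21.6 in the IgG libraries, with 0 called. In 8 of 9 libraries (not IgG replicate 3) most of that sum was Itgax, an integrin also found on macrophages, which had 14.6, 42.8 and 39.9 CPM in the anti-B7-H3 libraries, 7.94, 13.1 and 13.0 in the anti-PD1 libraries, and 20.6, 13.9 and 9.20 in the IgG libraries. The other 4 summed to 3.35 to 12.4 CPM per library and were highest in IgG replicate 3, where they had 27 reads together. That library had 3.74 receptor reads per coding kb, and how many of the 27 reads are background was not estimated. Values of these 4 genes over IgG share that limit. Over IgG in the anti-B7-H3 libraries, Itgax had 1.12 ± 0.41 (edgeR adjusted p = 0.326), while Clec9a, Flt3 and Zbtb46 had -1.06 ± 0.62, -0.63 ± 0.56 and -0.43 ± 0.53. Xcr1 was above 0 like Itgax, at 0.53 ± 0.75. The 6 fibroblast markers summed to 8489.6, 5565 and 5295 CPM in the anti-B7-H3 libraries, 5139, 4228 and 6096 in the anti-PD1 libraries, and 5942, 7610.1 and 2659 in the IgG libraries, and the 6 skeletal muscle markers to 236, 0.806 and 1413 CPM in the anti-B7-H3 libraries, 58.2, 970.1 and 419 in the anti-PD1 libraries, and 23.4, 44.9 and 20.2 in the IgG libraries. Neither list was highest in anti-B7-H3 replicate 2, and 0 genes of either were called. The NK cell, B cell, melanocyte, endothelial and keratinocyte lists also had 0 called. Of 5 erythroid markers tested, 1 was called with anti-B7-H3 over IgG, against 0.555% of all 12965 genes. Over all genes, 71 were called lower in that comparison and 1 higher. The erythroid marker called was Hbb-bt, a beta-globin that was lower in anti-B7-H3 than in IgG libraries (log2 fold change -2.21 ± 0.42, edgeR adjusted p = 0.0481). Its value over IgG in anti-PD1 libraries was -2.19 ± 0.42 (edgeR adjusted p = 0.0589), and between the antibodies it was -0.02 ± 0.40.

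The closest companions across libraries were ranked among 12956 genes by Pearson's r of log2 CPM over the 9 libraries, which share depth and group. The mean profile of H2-K1 and H2-D1 was followed most closely by Tap1 (r = 0.996), Cd69 (0.979), Tapbp (0.978), Tap2 (0.978) and Psmb9 (0.970). Tapbp encodes tapasin, which holds class I at the peptide pump, and Cd69, an early activation marker of lymphocytes, was at no more than 0.797 CPM. Tap1, Tap2, Tapbp and Psmb9 lie on chromosome 17 with the heavy chains. The mean profile of the 6 non-classical chains was followed by Uba7 (r = 0.990), Parp10 (0.968), Tap1 (0.968), Tap2 (0.963) and Nlrc5 (0.961). Uba7 encodes the enzyme that activates the interferon-induced modifier ISG15. B2m had a different set: 9930111J21Rik2 (r = 0.971), Tmem51 (0.969), Ifi209 (0.962), Il1b (0.943) and Phf11b (0.943).

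Among the members themselves, H2-K1 and H2-D1 had r = 0.992, and H2-T22 followed H2-K1 at 0.985. H2-Q6 followed H2-K1 least closely of the heavy chains, at 0.704. B2m correlated at 0.783 with H2-K1 and at 0.443 with H2-Q6. These r values describe 9 libraries in which the same few libraries set the extremes.

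**Figure D5:**
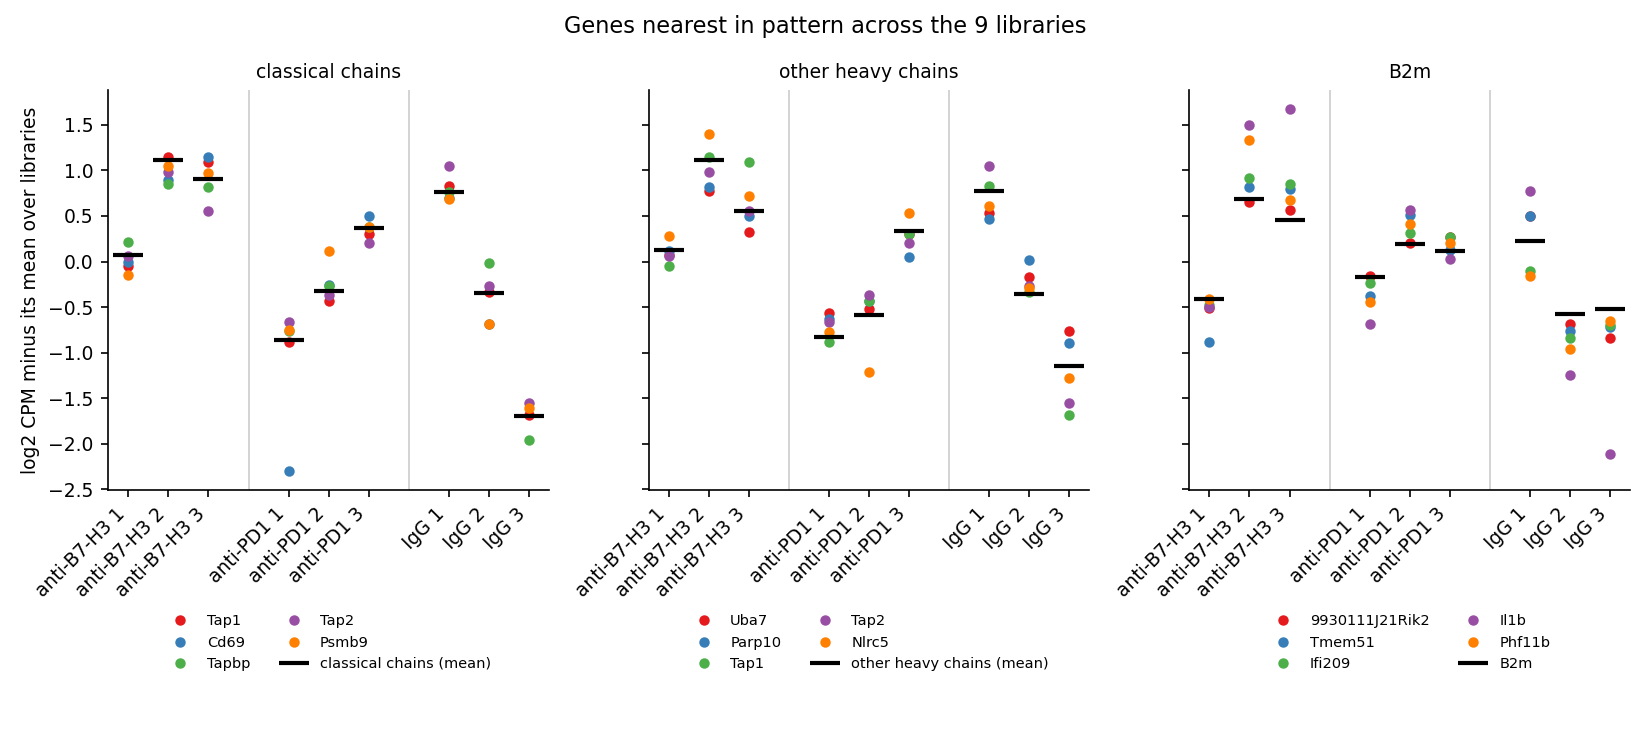
Log2 CPM of the 5 genes nearest in pattern to the classical chains (left), to the 6 other heavy chains (middle) and to B2m (right), each minus its mean over the 9 libraries, with black bars for the members. Most points lie near the black bars; the barely detected Cd69 falls below them in anti-PD1 replicate 1, has 0 reads and no point in IgG replicate 3, and Il1b spreads more widely than B2m.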

How the data were processed

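Bulk RNA-seq of 9 tumor RNA libraries was deposited per transcript. The estimated counts, TPM and effective lengths are the authors' values per the file headers (the quantifying program: not given in the sources used here). GRCm38 and FastQC 0.11.8 are named per the submitters' processing notes. Of 58083 transcripts, 57409 matched GENCODE M21 and were summed to 22136 genes; the rest held 0.105 to 0.369% of reads. Of matched transcripts, 92.2% were listed at their coding length, so UTR reads are largely uncounted.

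Summed estimated counts were rounded, filtered (filterByExpr, 12965 genes), TMM-scaled and tested with edgeR 4.0.16 in R 4.3.3 (robust quasi-likelihood, 1 fit over 3 groups, Benjamini-Hochberg over all genes tested, threshold 0.05, no minimum fold), after the fit was tested on simulated data. Alternatives used DESeq2 1.42.0, limma 3.58.1 and log2(TPM + 1), with a pseudocount of 1 that understates changes of low genes. Levels, shares and correlations used Python 3.11.15 and scipy 1.17.1. Besides the members, up to 4 genes per list and comparison with the smallest p could be named, with the 5 nearest in pattern. Members and lists were chosen with earlier results of these data known. Intervals cover counting error only.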

Additional observations from a re-analysis of the deposited data

How the results depend on the processing

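Of 645 log2 fold changes of members under the alternatives, 568 kept their direction and side of the threshold. Of the rest, 36 newly passed it, all under library totals or log2(TPM + 1), and 55 turned round, 14 of them among the 36. Size factors from DESeq2, the DESeq2 test, TMM without satellite genes, a minimum of 1 CPM in 3 libraries, a fit of only the groups compared, summed paralogs and background reads subtracted each left 0 members called and every direction unchanged. The last of these and log2(TPM + 1) without satellite genes, limma trend were added after the data were seen. Scaling by library totals or by deposited TPM, which include the satellite reads, called 9 of 9 members with either antibody over IgG and in the test over all 3 groups. Most genes tested were called over IgG as well, so these calls do not set the members apart. For H2-Q4 with anti-PD1 over IgG, adjustment only moved p from 0.0135 to 0.0146 under library totals (edgeR). Under log2(TPM + 1) it moved p from 0.00035 to 0.00044 (limma). The median of all genes moved under these scalings, to 3.37 and 3.15 under library totals and to 3.04 and 2.67 under log2(TPM + 1), for anti-B7-H3 and for anti-PD1 over IgG. Relative to those shifts the member medians were 0.82 and 0.02, and 1.51 and 0.71. The classical minus non-classical difference over IgG moved to 0.86 for anti-B7-H3 and 0.79 for anti-PD1 under log2(TPM + 1), against 0.29 and 0.27. Under log2(TPM + 1) the group mean of that difference fell further in IgG libraries than with either antibody. The pseudocount of 1 makes the difference depend on the scale of each library, and the deposited TPM include the satellite reads. The part of the pseudocount in the move was not tested.

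For anti-PD1 over IgG, 20 of the 55 turned round under 3 scalings that moved all genes upward. Library totals gave 3.18 for H2-K1, 3.12 for H2-D1, 2.66 for H2-Q4, 2.45 for H2-Q6, 2.98 for H2-Q7, 3.20 for H2-T22 and 3.17 for H2-T23. Under log2(TPM + 1) the values were 3.71 for H2-K1, 3.67 for H2-D1, 3.08 for H2-Q4, 1.95 for H2-Q6, 2.89 for H2-Q7, 3.37 for H2-T22 and 3.39 for H2-T23. Leaving the satellite genes out of that scale gave 0.82 for H2-K1, 0.74 for H2-D1, 0.43 for H2-Q4, 0.71 for H2-Q7, 0.77 for H2-T22 and 0.80 for H2-T23, where the median of all genes was 0.59. Against the medians of all genes, 5, 8 and 7 of 9 members were higher under these scalings, and 2 of 9 in the fit reported. With no filter on low counts they were 0.17 for H2-K1, 0.10 for H2-D1, 0.19 for H2-T22 and 0.14 for H2-T23 (median of all genes -0.19), with limma-voom 0.18 for H2-K1, 0.073 for H2-D1 and 0.033 for H2-T23, and with quality weights -0.0040 for H2-M3. Every value given here from these 3 fits was smaller than its standard error. A fit with the receptor level as a covariate turned anti-B7-H3 over IgG to -1.18 for H2-K1, -1.04 for H2-D1, -1.23 for H2-Q4, -0.12 for H2-Q6, -0.35 for H2-Q7, -0.81 for H2-T22, -0.77 for H2-T23, -0.24 for H2-M3 and -0.48 for B2m, and anti-PD1 over IgG to -0.50 for H2-M3 and -0.51 for B2m. The receptor level was higher in every IgG library than in every antibody library, so its part and that of the treatment cannot be told apart. The standard errors of the values that the receptor fit turned round ran from 0.58 to 1.84. The cause of the reversals without the filter, with limma-voom and with left-out libraries was not tested.

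Leaving out each library in turn gave 0 members called every time. It gave ranges over IgG for anti-PD1 of -0.47 to 0.74 for H2-K1, -0.51 to 0.62 for H2-D1, -1.21 to 0.36 for H2-Q4, -0.83 to 0.46 for H2-Q7, -0.38 to 0.49 for H2-T22, -0.41 to 0.68 for H2-T23 and -0.090 to 0.51 for H2-M3. H2-Q6 (-1.42 to -0.26) and B2m (0.17 to 0.61) kept their sign there. The ranges over IgG for anti-B7-H3 were 0.54 to 1.75 for H2-K1, 0.38 to 1.504 for H2-D1, 0.0068 to 1.41 for H2-Q4, -0.013 to 1.01 for H2-Q6, 0.33 to 1.53 for H2-Q7, 0.52 to 1.32 for H2-T22, 0.48 to 1.57 for H2-T23, 0.41 to 0.93 for H2-M3 and 0.34 to 0.87 for B2m. The highest value for anti-B7-H3 over IgG came without IgG replicate 1 for each of the 9. Between the antibodies, all 9 stayed above 0 in each of these fits, from 0.034 at the lowest (B2m) to 1.88 at the highest (H2-Q6). Same-numbered libraries were not paired by the labels, and their deviations correlated between -0.324 and 0.18. The replicate block left 0 members called, changed no direction, and gave member medians of 0.76, -0.07 and 0.91. The adjusted p of members reached no lower than 0.0798 outside the library-total and TPM scales that keep satellite reads. Depth limits the rarest chains in IgG replicate 3 most.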
